A study of Mus musculus with 29 samples.

Results

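The genes described here were 10 components of the inflammasome pathway, found by their symbols among the 23930 genes of the deposited expression table. They were the sensors Nlrp3, Nlrc4, Nlrp1b, Aim2 and Mefv, the adaptor Pycard, the caspases Casp1 and Casp4, the pore-forming gasdermin Gsdmd, and Il1rn, which encodes the antagonist of the interleukin-1 receptor. Their expression was followed in 29 libraries, in 9 groups, of macrophages and Kupffer cells (KCs, the resident macrophages of the liver) that had been sorted from untreated C57BL/6 mice. The mice were either wild type or lacked both genes for the endosomal ribonuclease RNase T2 (Rnaset2a-/-Rnaset2b-/-, written Rnaset2-/-). Their age was not given in the sources used here.

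Ly6Chi macrophages came from the spleens and the livers of wild-type and Rnaset2-/- mice, with 3 libraries in each of these 4 groups. They were gated as CD11b+ cells with high Ly6C that lacked Ly6G, SiglecF and NK1.1. Ly6Clow macrophages came from the same organs and genotypes, with 3 libraries in each group except Rnaset2-/- spleen, which had 4; in spleen they were gated by high CD16.2, the product of Fcgr4. KCs, with 4 libraries, came from wild-type livers only and were gated as F4/80+ Tim4+ cells with intermediate CD11b. Livers were dissociated in a heated gentleMACS device, whereas spleens were minced between glass slides, so organ and dissociation cannot be told apart. The deficiency was present in every cell of the mutant mice and not only in macrophages. The labels did not say whether the libraries of a group came from separate mice, and p-values therefore measure only the spread between these libraries, which may be technical.

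Inflammasomes are complexes in the cytosol that form when a sensor meets a sign of infection or damage. NLRP3 responds to potassium loss and membrane damage, AIM2 to double-stranded DNA, NLRC4 (through its NAIP partners) to bacterial flagellin and secretion systems, and NLRP1B to proteases such as anthrax lethal factor. Mefv encodes the sensor pyrin. Most of them recruit ASC, the product of Pycard, and through it activate caspase-1, which matures IL-1β and IL-18 and cleaves gasdermin D, whose released part forms pores in the plasma membrane. Mouse caspase-11, the product of Casp4, cleaves gasdermin D after binding bacterial lipopolysaccharide in the cytosol. In macrophages Nlrp3 and Casp4 are known as genes whose transcripts are raised by Toll-like receptor signals.

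Each library held 11175843 to 21167602 reads (median 13027220), so that 3 reads, the limit that a count of 0 allows for, corresponded to 0.142 to 0.268 reads per 1000000 reads (RPM). The 3 libraries of Rnaset2-/- splenic Ly6Chi macrophages were the deepest, at 20404155 to 21167602 reads. Their wild-type counterparts held 14280906 to 14415756 reads, so genotype and depth cannot be told apart in that comparison. The members with the fewest reads were Casp4, with 9 to 722 reads per library, and Mefv, with at least 36. Each gene was read through a single amplified stretch, so that RPM levels were not compared between genes. Marker lists followed the sort labels only in part. In splenic Ly6Chi libraries, gated to lack Ly6G, 15 neutrophil genes summed to 32084 to 34364 RPM in wild type and 35044 to 60975 RPM in Rnaset2-/- mice. The summed level of 5 genes of classical monocytes was 1057 to 5482 RPM in Ly6Chi libraries and 33.7 to 1013 RPM in Ly6Clow libraries. Marker genes of KCs summed to 7300 to 19918 RPM in KCs and to 449 to 791 RPM in wild-type liver macrophages, but also to 6402 to 11320 RPM in Rnaset2-/- liver Ly6Clow libraries. All 6 libraries of Rnaset2-/- liver macrophages held at most 0.154 RPM of Xist and 150 to 291 RPM of Y-linked genes, as in male mice. The wild-type libraries of liver macrophages held 321 to 539 RPM of Xist, and Y-linked genes were read in replicates 2 and 3 of each subset too (28.95 to 52.0 RPM), a mixed pattern. The effects of genotype and of sex therefore cannot be told apart in hepatic macrophages. The 4 KC libraries held 647 to 949 RPM of Xist and no read of Y-linked genes. Of the spleen libraries, only replicate 2 of Rnaset2-/- spleen Ly6Clow had the male pattern. Rnaset2a and Rnaset2b were not analysed here, and the genotype labels were not checked against them.

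The RefSeq promoters of the 4 members that differed most by genotype in liver (Nlrp3, Aim2, Casp4 and Pycard) are shown first, as the 250 bases before a start site. Nlrp3 has 2 of them here because its start sites held different motifs. They were searched on both strands for GAGGAA, the core bound by the myeloid factor PU.1, and for the NF-κB consensus, which is given by name only because it holds ambiguous letters. Capitals mark the matches, and TTCCTC is GAGGAA read on the other strand. All coordinates are of GRCm38.p6.
Nlrp3, chr11:59542436-59542685, plus strand, GAGGAA at -220, -129 and -36: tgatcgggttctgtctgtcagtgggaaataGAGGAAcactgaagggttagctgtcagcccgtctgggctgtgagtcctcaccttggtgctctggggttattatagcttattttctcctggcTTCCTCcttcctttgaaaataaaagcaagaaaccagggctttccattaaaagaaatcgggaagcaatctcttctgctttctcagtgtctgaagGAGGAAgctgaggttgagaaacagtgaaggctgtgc
Nlrp3, chr11:59541319-59541568, plus strand, NF-κB consensus at -186: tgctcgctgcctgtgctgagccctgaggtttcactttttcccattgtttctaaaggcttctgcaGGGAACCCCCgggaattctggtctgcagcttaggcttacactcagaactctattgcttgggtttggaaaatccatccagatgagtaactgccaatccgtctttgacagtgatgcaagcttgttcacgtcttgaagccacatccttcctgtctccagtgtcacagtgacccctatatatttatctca
Aim2, chr1:173420354-173420603, plus strand, GAGGAA at -140 and -113: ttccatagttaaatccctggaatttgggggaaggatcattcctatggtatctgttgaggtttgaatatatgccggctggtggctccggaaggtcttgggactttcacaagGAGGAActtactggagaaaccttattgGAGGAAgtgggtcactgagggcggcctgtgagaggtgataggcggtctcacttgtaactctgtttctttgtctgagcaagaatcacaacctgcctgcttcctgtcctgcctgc
Casp4, chr9:5308599-5308848, plus strand, overlapping NF-κB matches at -93 and -92 and a further match at -39: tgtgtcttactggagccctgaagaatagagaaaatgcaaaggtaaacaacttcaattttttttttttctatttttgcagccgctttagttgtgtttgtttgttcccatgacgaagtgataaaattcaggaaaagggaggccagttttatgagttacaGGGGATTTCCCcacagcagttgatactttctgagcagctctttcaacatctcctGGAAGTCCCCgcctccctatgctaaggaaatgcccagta
Pycard, chr7:127993868-127994117, minus strand, GAGGAA at -42: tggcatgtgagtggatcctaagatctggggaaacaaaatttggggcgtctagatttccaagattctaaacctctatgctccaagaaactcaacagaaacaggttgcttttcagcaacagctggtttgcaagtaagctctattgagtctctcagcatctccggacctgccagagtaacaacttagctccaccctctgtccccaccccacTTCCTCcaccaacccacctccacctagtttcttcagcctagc

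In windows from 250 bases before to 50 bases after a start site, 9 of the 10 members had a RefSeq promoter, with 14 windows in all (none for Gsdmd). GAGGAA was found in 5 of the 14 windows, belonging to Aim2, Casp1, Nlrp1b, Nlrp3 and Pycard, and in 28.3% of the 32851 RefSeq promoters. The NF-κB consensus was found in 3 of the 14 windows, belonging to Casp4 and Nlrp3, and in 8.46% of all promoters. The windows of Casp4 overlap and hold the same matches, which are therefore counted more than once. GAAANNGAA, the core of interferon-stimulated response elements, and TTCNNNGAA, the STAT site, were in none of the 14 windows, against 8.56% and 8.3% of all promoters. A match describes the letters only.

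The members lie on 8 chromosomes. Nlrp3 (chr11:59541569-59566955) and Nlrp1b (chr11:71152574-71242514) are on the same chromosome, and Casp1 (chr9:5298517-5307281) and Casp4 (chr9:5308849-5336791) are neighbours. The others are Nlrc4 (chr17:74426255-74459144), Aim2 (chr1:173349547-173466040), Mefv (chr16:3706974-3718211), Pycard (chr7:127991373-127993867), Gsdmd (chr15:75862144-75867408) and Il1rn (chr2:24336860-24351491).

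Expression of every member was detected in all 29 libraries, and all 10 passed the filter of at least 1 RPM in at least 3 compared libraries in every comparison. The mean level of the highest group exceeded that of the lowest by 1.93-fold for Casp1, the flattest member, and by 29.3-fold for Casp4. The ratios were 2.69 for Gsdmd, 3.06 for Aim2, 4.001 for Nlrc4, 5.02 for Pycard, 5.55 for Nlrp1b, 6.91 for Mefv, 8.99 for Nlrp3 and 12.0 for Il1rn. Nlrp3, Mefv, Casp4 and Il1rn had their highest mean in wild-type liver Ly6Chi macrophages. Nlrp1b, Pycard and Casp1 had theirs in Rnaset2-/- liver Ly6Clow macrophages, where Nlrp3, Aim2 and Casp4 had their lowest.

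Ordered by group mean, most neighbouring groups did not differ beyond their spread, since the ranges of their libraries overlapped. The exceptions were few. For Nlrp3 a gap lay between wild-type splenic Ly6Chi and wild-type hepatic Ly6Clow macrophages, and for Aim2 between Rnaset2-/- splenic Ly6Chi and Rnaset2-/- hepatic Ly6Clow macrophages, the lowest group. For Nlrp1b gaps lay on both sides of wild-type splenic Ly6Clow macrophages, which came below every hepatic group and above both Rnaset2-/- splenic groups. For Mefv a gap separated all 4 Ly6Chi groups from all Ly6Clow groups and KCs. Pycard had gaps below Rnaset2-/- hepatic Ly6Clow macrophages, below wild-type hepatic Ly6Chi macrophages and above KCs. Gsdmd had a gap above its 2 lowest groups, Rnaset2-/- hepatic Ly6Clow macrophages and KCs, and Il1rn had a gap below its 2 highest, the hepatic Ly6Chi macrophages of both genotypes.

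**Figure D1:**
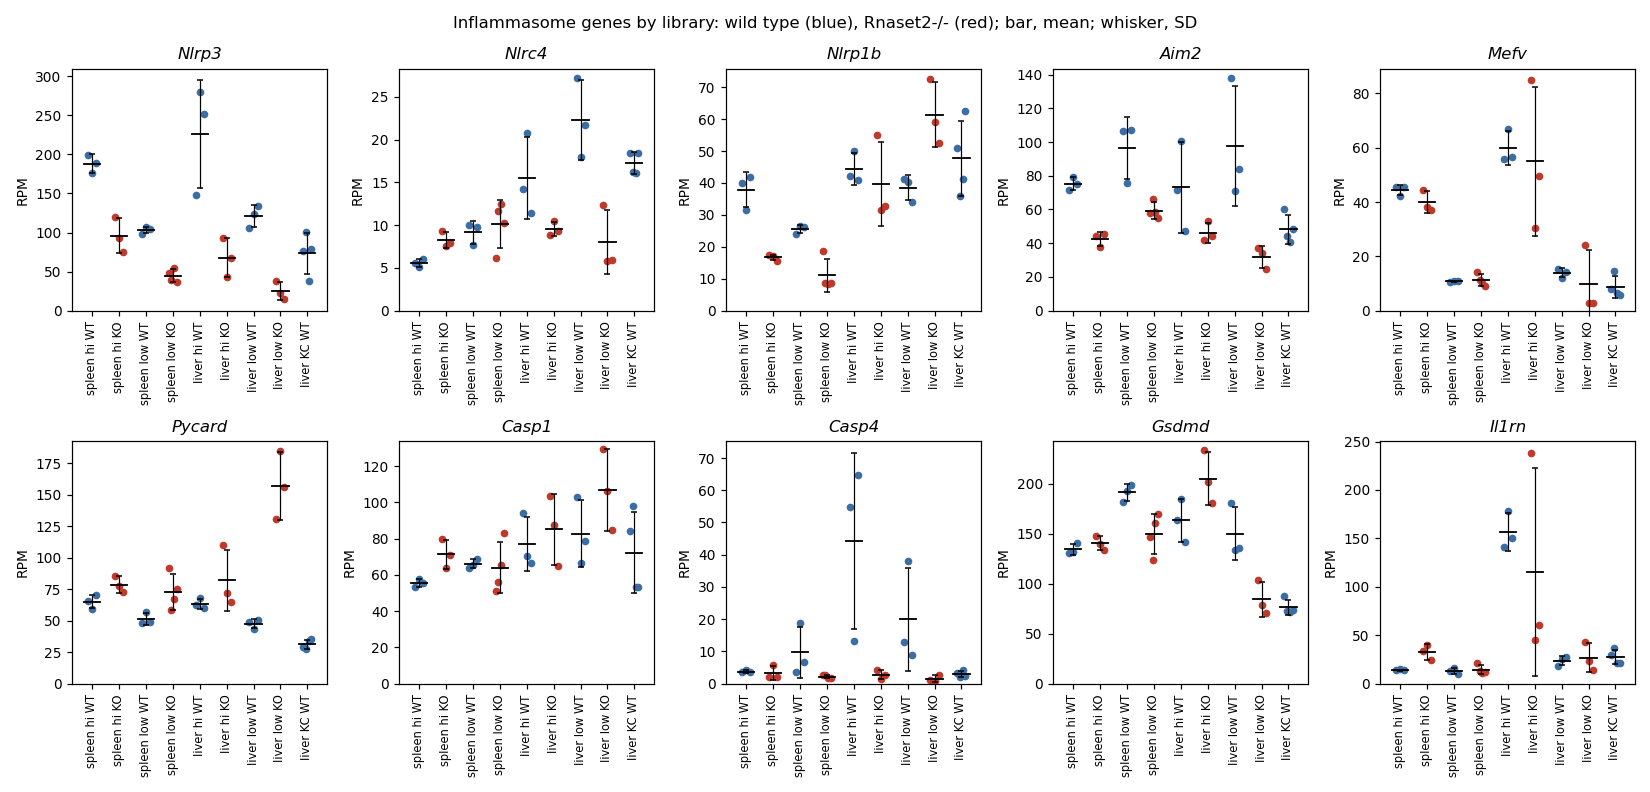
Level of each of the 10 members in RPM (y axis) in every library, by the 9 groups of organ, subset and genotype (x axis). Points are libraries (blue, wild type; red, Rnaset2-/-), bars are group means and whiskers are SD. Nlrp3 falls from blue to red in all 4 pairs of groups, whereas Pycard in Rnaset2-/- liver Ly6Clow macrophages (130 to 185 RPM) lies above every other library.

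The first comparison asked how the members differed between Rnaset2-/- and wild-type macrophages of the same organ and subset. Fold changes are differences of log2(scaled RPM + 1), and a gene was called changed at an adjusted p below 0.05 in limma with more than 1.5-fold difference. Nlrp3 and Aim2 were lower in Rnaset2-/- macrophages of both organs and both subsets. Among splenic Ly6Chi macrophages 5 of the 10 members changed, against 22.2% of all genes tested. Nlrc4 and Il1rn rose there, whereas Nlrp3, Nlrp1b and Aim2 fell. In splenic Ly6Clow macrophages 3 members changed, against 8.35% of all genes, and all 3 fell (Nlrp3, Nlrp1b and Aim2). In hepatic Ly6Chi macrophages 4 members changed, against 30.6% of all genes, and all 4 fell (Nlrp3, Nlrc4, Aim2 and Casp4). In hepatic Ly6Clow macrophages 7 members changed, against 42.7% of all genes: Nlrp1b and Pycard rose, and Nlrp3, Nlrc4, Aim2, Casp4 and Gsdmd fell.

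The median log2 difference of the members was 0.07 in splenic Ly6Chi and -0.20 in splenic Ly6Clow macrophages, beside 0.01 for all genes in either comparison. It was -0.72 in hepatic Ly6Chi and -0.98 in hepatic Ly6Clow macrophages, beside 0.01 for all genes in both. In these bulk samples fewer cells of a type and less RNA per cell cannot be told apart. The scaling of libraries moved the median of all genes by -0.11 in splenic Ly6Chi and by 0.30 in hepatic Ly6Chi macrophages (unscaled minus scaled). Without it the share of called genes that rose was 31.2% in place of 44% in splenic Ly6Chi, and 74.6% in place of 51.2% in hepatic Ly6Chi macrophages. Changes are therefore relative to the scaled median.

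**Figure D2:**
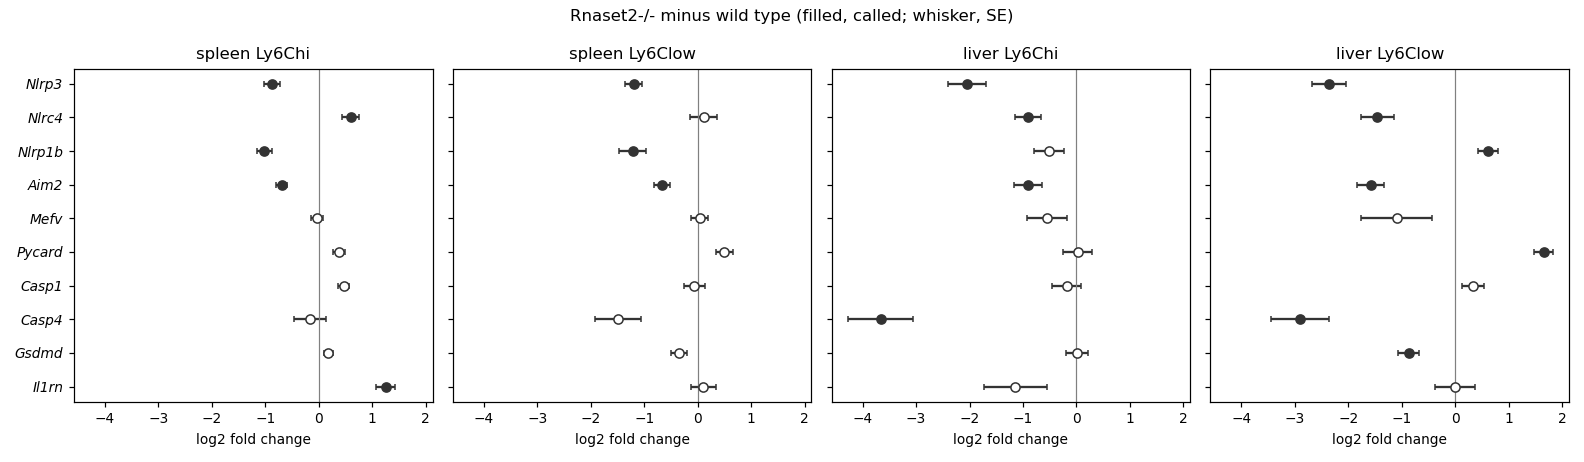
Log2 difference between Rnaset2-/- and wild type (x axis) for the 10 members (y axis) in the 4 pairs of groups. Filled circles are called changes, open circles are not, and whiskers are SE. Nlrp3 and Aim2 lie left of 0 in every panel, the largest falls are those of Casp4 in liver, and Pycard and Nlrp1b lie right of 0 in hepatic Ly6Clow macrophages.

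Nlrp3, the sensor of ion loss, fell in each of the 4 comparisons. In splenic Ly6Chi macrophages its level was 199.7, 176 and 189 RPM in wild type and 120.0, 93.4 and 75.1 RPM in Rnaset2-/- mice. The splenic Ly6Clow values were 98.5, 107 and 104 RPM in wild type and 47.9, 39.5, 55.0 and 36.7 RPM in Rnaset2-/-. Neither pair of groups overlapped, and every mutant library lay below every wild-type library. The log2 difference was -0.87 (SE 0.15, adjusted p = 0.00149) in Ly6Chi and -1.20 (SE 0.15, adjusted p = 0.00406) in Ly6Clow macrophages of the spleen.

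In liver, Nlrp3 stood at 148, 279 and 252 RPM in wild-type Ly6Chi macrophages and at 92.7, 43.3 and 67.8 RPM in Rnaset2-/- ones. Hepatic Ly6Clow macrophages held 106, 124 and 134 RPM in wild type and 38.0, 23.2 and 14.3 RPM in Rnaset2-/- mice. Again no mutant library reached the lowest wild-type library. The log2 difference was -2.05 (SE 0.36, adjusted p = 0.00524) in Ly6Chi and -2.36 (SE 0.31, adjusted p = 0.000652) in Ly6Clow macrophages. The fall of Nlrp3 was called in all 4 comparisons when any 1 library was left out. It was not called in splenic Ly6Chi macrophages when all 29 libraries shared 1 fit (adjusted p = 0.102).

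Aim2, the DNA sensor, fell by smaller steps. In splenic Ly6Chi macrophages it was 71.5, 79.3 and 75.1 RPM in wild type and 44.4, 37.9 and 45.7 RPM in Rnaset2-/- mice (log2 difference -0.69, SE 0.10, adjusted p = 0.000602). The hepatic Ly6Clow values were 138, 70.7 and 84.0 RPM in wild type and 37.0, 34.2 and 24.5 RPM in Rnaset2-/- mice (-1.58, SE 0.26, adjusted p = 0.00177). The groups did not overlap in either comparison, and the call stood when any 1 library was left out.

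The other falls of Aim2 rested on fewer libraries. For splenic Ly6Clow macrophages the level was 107, 75.5 and 107 RPM in wild type and 57.8, 66.4, 58.3 and 54.7 RPM in Rnaset2-/- (-0.67, SE 0.15, adjusted p = 0.0313). The call was lost (adjusted p = 0.0529 to 0.135) without wild-type replicate 1 or 3 or without mutant replicate 2, 3 or 4. For hepatic Ly6Chi macrophages it was 71.5, 101 and 47.0 RPM in wild type and 41.6, 52.9 and 44.1 RPM in Rnaset2-/- (-0.90, SE 0.26, adjusted p = 0.0335), and here the groups overlapped. That call was lost without wild-type replicate 1 or 2 or mutant replicate 2 or 3 (adjusted p = 0.0713 to 0.106), and without scaling (-0.59, adjusted p = 0.141).

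Nlrp1b, the protease-triggered sensor, went in opposite directions in the 2 organs in Ly6Clow macrophages. In Ly6Chi macrophages the genotype effects of the 2 organs were not called different (0.54, SE 0.33, adjusted p = 0.222). In splenic Ly6Chi macrophages it was 40.0, 31.6 and 41.9 RPM in wild type and 17.3, 17.0 and 15.6 RPM in Rnaset2-/- mice (-1.02, SE 0.14, adjusted p = 0.000322). The splenic Ly6Clow values were 24.0, 26.4 and 26.1 RPM in wild type and 18.8, 8.59, 8.23 and 8.60 RPM in Rnaset2-/- (-1.21, SE 0.25, adjusted p = 0.0238). Mutant replicate 1 stood apart from the other mutant libraries but still lay below the wild type. The Ly6Clow call was lost without any of wild-type replicates 1, 2 and 3 or without mutant replicate 2 or 4 (adjusted p = 0.0516 to 0.105).

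In hepatic Ly6Clow macrophages Nlrp1b was higher in Rnaset2-/- mice, with 72.5, 59.0 and 52.5 RPM against 41.2, 40.3 and 34.1 RPM in wild type. The groups did not overlap (0.61, SE 0.18, adjusted p = 0.0248), but the call was lost without wild-type replicate 1 or 3 or mutant replicate 1 (adjusted p = 0.059 to 0.111). Among hepatic Ly6Chi macrophages the mutant values of 54.9, 31.6 and 32.7 RPM spanned the wild-type values of 42.1, 50.1 and 41.1 RPM, and no change was called (-0.51, adjusted p = 0.202). Without mutant replicate 1, Nlrp1b was called lower there (-0.82, adjusted p = 0.00491). Nlrp1b has close paralogs beside it on chromosome 11, with which it may share reads.

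Nlrc4, the partner of the NAIP proteins, also differed by organ. It was 5.55, 5.07 and 6.09 RPM in wild-type and 9.35, 7.498 and 7.93 RPM in Rnaset2-/- splenic Ly6Chi macrophages. This rise of 0.60 (SE 0.16, adjusted p = 0.013) lay just above the 1.5-fold limit. It was no longer called without wild-type replicate 1 or 2 or mutant replicate 1 (0.53 to 0.60, adjusted p = 0.0266 to 0.0628), nor without scaling (0.49, adjusted p = 0.0355).

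In hepatic Ly6Clow macrophages Nlrc4 was 27.2, 18.0 and 21.7 RPM in wild type and 12.4, 5.84 and 5.90 RPM in Rnaset2-/- mice. The groups were apart, and the log2 difference of -1.46 (SE 0.30, adjusted p = 0.00559) was called with any library left out. The hepatic Ly6Chi values were 14.2, 20.8 and 11.5 RPM in wild type and 8.83, 10.5 and 9.31 RPM in Rnaset2-/- (-0.90, SE 0.24, adjusted p = 0.0269). The groups again did not overlap, but the call was lost without wild-type replicate 1 or 2 or mutant replicate 2 or 3 (adjusted p = 0.0682 to 0.0835) and without scaling (-0.61, adjusted p = 0.108). Its splenic Ly6Clow difference was 0.11 (SE 0.26, adjusted p = 0.801).

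Mefv, which encodes pyrin, passed the test in none of the 4 genotype comparisons. In spleen it differed by -0.04 (SE 0.11, adjusted p = 0.799) in Ly6Chi and by 0.04 (SE 0.16, adjusted p = 0.892) in Ly6Clow macrophages. The hepatic Ly6Chi values were 55.9, 67.1 and 56.6 RPM in wild type and 84.8, 30.6 and 49.5 RPM in Rnaset2-/- mice. The hepatic Ly6Clow values were 15.4, 12.1 and 14.2 RPM in wild type and 24.1, 2.80 and 2.76 RPM in Rnaset2-/- mice. Replicate 1 of each mutant liver group was thus above every wild-type library, while the other mutant libraries were below all of them. Without that library the log2 difference was -0.97 (adjusted p = 0.0045) in Ly6Chi and -1.996 (adjusted p = 0.000291) in Ly6Clow macrophages, past the threshold in both.

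Pycard, the gene of the adaptor ASC, rose in hepatic Ly6Clow macrophages alone among the 4 comparisons. There it stood at 130, 185 and 156 RPM in Rnaset2-/- mice and at 49.2, 43.3 and 50.3 RPM in wild type. The lowest mutant library was above every other library of the series. The log2 difference was 1.65 (SE 0.17, adjusted p = 0.000216), and it was called with any library left out. The hepatic Ly6Chi values were 110, 72.3 and 64.5 RPM in Rnaset2-/- against 62.7, 67.8 and 59.7 RPM in wild type (0.02, SE 0.26, adjusted p = 0.962). In spleen the differences were 0.38 (SE 0.11, adjusted p = 0.0178) in Ly6Chi, which missed the fold limit, and 0.50 (SE 0.16, adjusted p = 0.0822) in Ly6Clow macrophages.

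The caspases behaved unlike each other. Casp1, which encodes the protease that matures IL-1β, was called in none of the genotype comparisons, with log2 differences of 0.47 (SE 0.10, adjusted p = 0.0057, under the fold limit) and -0.06 (SE 0.19, adjusted p = 0.862) in splenic Ly6Chi and Ly6Clow macrophages. In liver they were -0.18 (SE 0.27, adjusted p = 0.63) and 0.33 (SE 0.21, adjusted p = 0.235).

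Casp4, the lipopolysaccharide-sensing caspase, in contrast fell in both hepatic subsets, by more than any other member. In hepatic Ly6Chi macrophages it was 55.0, 13.1 and 64.6 RPM in wild type and 4.15, 1.39 and 2.54 RPM in Rnaset2-/- mice. The hepatic Ly6Clow values were 12.8, 38.1 and 8.77 RPM in wild type and 1.08, 0.70 and 2.76 RPM in Rnaset2-/- mice. The wild-type libraries differed widely from each other, yet no mutant library reached the lowest of them. The log2 difference was -3.66 (SE 0.61, adjusted p = 0.00454) in Ly6Chi and -2.90 (SE 0.54, adjusted p = 0.00329) in Ly6Clow macrophages, and both calls stood when any library was left out. With 1 added to each level, these values understate the change of so low a gene.

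In spleen Casp4 was 3.47, 4.16 and 3.50 RPM in wild-type and 1.98, 5.69 and 2.04 RPM in Rnaset2-/- Ly6Chi macrophages, which overlapped (-0.17, adjusted p = 0.69). The splenic Ly6Clow values were 3.56, 18.7 and 6.81 RPM in wild type and 2.56, 2.63, 1.84 and 1.69 RPM in Rnaset2-/-, and the groups were apart. That difference of -1.49 (SE 0.43, adjusted p = 0.0644) missed the threshold in limma, but passed it without wild-type replicate 1 (-1.98, adjusted p = 0.0417) and in DESeq2 (adjusted p = 0.0013) and edgeR (adjusted p = 0.0385) on recovered reads.

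Gsdmd, the substrate that forms the pore, fell in hepatic Ly6Clow macrophages alone among the 4 comparisons. It was 180, 133 and 136 RPM in wild type and 104, 78.5 and 70.4 RPM in Rnaset2-/- mice (-0.87, SE 0.19, adjusted p = 0.00776). The groups did not overlap, and the call stood with any library left out. The hepatic Ly6Chi difference was 0.01 (SE 0.21, adjusted p = 0.97), and in spleen it was 0.18 (adjusted p = 0.132) in Ly6Chi and -0.35 (adjusted p = 0.154) in Ly6Clow macrophages.

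Il1rn, the brake on IL-1 signalling, rose in splenic Ly6Chi macrophages, from 13.8, 14.6 and 13.6 RPM in wild type to 33.1, 40.1 and 24.5 RPM in Rnaset2-/- mice. The groups were apart (1.25, SE 0.18, adjusted p = 0.000471), with any library left out as well. In hepatic Ly6Chi macrophages it was 141, 178 and 150 RPM in wild type and 239, 45.5 and 60.8 RPM in Rnaset2-/-, so that mutant replicate 1 was above and the other mutant libraries far below the wild type. No change was called there (-1.14, SE 0.59, adjusted p = 0.176), but without mutant replicate 1 Il1rn was called lower (-1.92, adjusted p = 1.84e-05). The Ly6Clow differences were 0.11 (adjusted p = 0.787) in spleen and -0.0016 (SE 0.37, adjusted p = 0.998) in liver.

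Without the filter on low values the adjusted p-values of 10 of the called changes moved past 0.05 at the same fold. For hepatic Ly6Chi macrophages they were those of Nlrp3 and Casp4 (both 0.0618), Nlrc4 (0.0784) and Aim2 (0.135), and in hepatic Ly6Clow macrophages those of Nlrc4 (0.0525), Nlrp1b (0.0534) and Casp4 (0.0556). In spleen they were those of Nlrp3 in Ly6Chi (0.0632) and of Nlrp1b (0.13) and Aim2 (0.119) in Ly6Clow macrophages. Pooling all 29 libraries in 1 fit also ended the calls of Nlrc4 (adjusted p = 0.152) and Il1rn (adjusted p = 0.066) in splenic Ly6Chi macrophages.

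Other measured features moved with genotype. A list of 30 immediate-early genes (such as Fos and Jun, which are raised within minutes by stimulation or by tissue dissociation) summed to 35761 to 39933 RPM in wild-type and 5288 to 10608 RPM in Rnaset2-/- hepatic Ly6Chi macrophages, and 25 of 30 genes were called lower. In hepatic Ly6Clow macrophages the sums were 30559 to 44105 RPM in wild type and 2017 to 3189 RPM in Rnaset2-/- mice, with 30 of 30 lower. In spleen 18 of 29 tested were lower in Ly6Chi (20756 to 20923 RPM in wild type, 11100 to 14623 RPM in Rnaset2-/-) and 0 of 29 were called in Ly6Clow macrophages. Of 21 target genes of NF-κB, 8 fell and 1 rose in splenic Ly6Chi, 1 fell and 4 rose in splenic Ly6Clow, 12 fell and 1 rose in hepatic Ly6Chi, and 15 fell and 1 rose in hepatic Ly6Clow macrophages. No member is on either list, and the part of these lists in the members' changes was not tested.

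Across the 29 libraries, Pearson's r of a member with the mean of the immediate-early list was 0.80 for Aim2, 0.78 for Casp4, 0.74 for Nlrp3 and 0.65 for Gsdmd. It was 0.49 for Nlrc4, 0.45 for Mefv, 0.28 for Il1rn, 0.03 for Casp1, -0.05 for Nlrp1b and -0.11 for Pycard. With the NF-κB targets it was 0.79 for Casp4, 0.72 for Gsdmd, 0.69 for Nlrp3, 0.68 for Aim2, 0.56 for Mefv and 0.53 for Il1rn. These are descriptions, since the points share organ, subset and genotype.

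**Figure D3:**
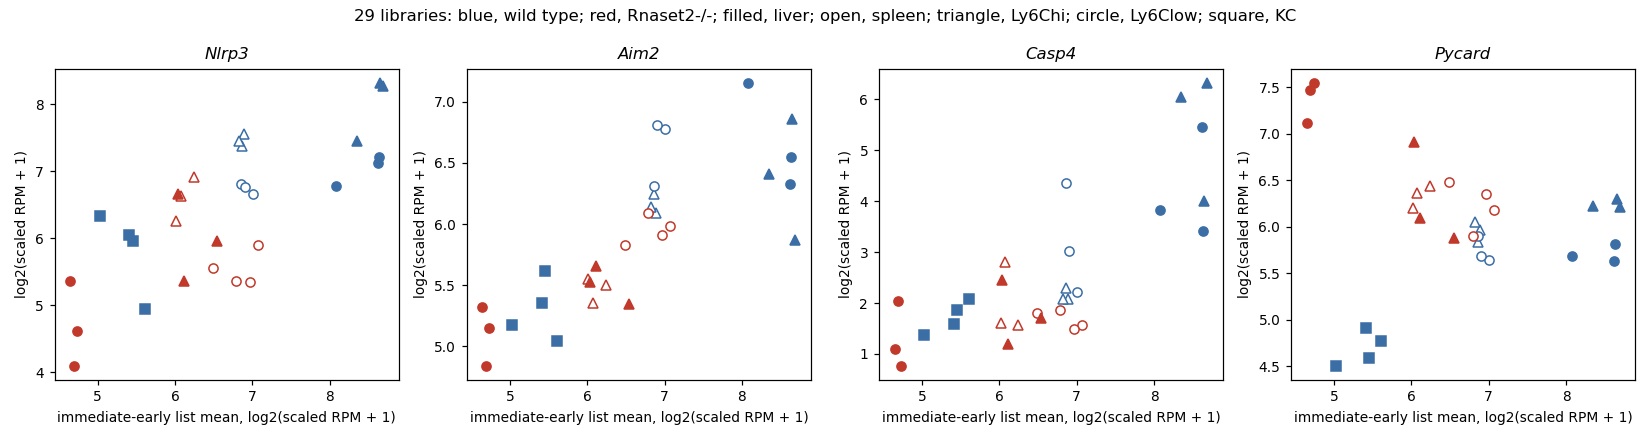
Level of Nlrp3, Aim2, Casp4 and Pycard (y axis, log2 of scaled RPM + 1) against the mean of the immediate-early genes (x axis, same scale) in the 29 libraries, with wild type in blue and Rnaset2-/- in red. The first 3 genes rise with the list (r = 0.74, 0.80 and 0.78), whereas Pycard does not (r = -0.11).

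Marker genes of other cells also differed. Beside the hepatic Ly6Clow results, where Pycard and Nlrp1b rose, the 8 markers of KCs summed to 449 to 789 RPM in wild type and 6402 to 11320 RPM in Rnaset2-/- mice, with 5 of 8 called higher and none listed at 0. Also higher there were markers of B cells (6 of 6 tested, 27.7 to 31.4 RPM in wild type and 119.6 to 413 RPM in Rnaset2-/-), T cells (5 of 6 tested, 15.1 to 33.8 and 40.6 to 131 RPM), erythroid cells (5 of 5 tested, 1.08 to 5.84 and 57.4 to 155 RPM) and endothelium (3 of 8, 275 to 486 and 1403 to 4364 RPM). Lower were genes of classical monocytes (3 of 5, 487 to 679.5 RPM in wild type and 33.7 to 246 RPM in Rnaset2-/-) and of dendritic cells (4 of 8, with 1 higher, 401 to 554 and 118 to 265 RPM). In KCs themselves Pycard was 29, 27.5, 33.4 and 35.2 RPM, below every other library of the series, and Nlrp1b was 51.0, 35.9, 41.3 and 62.5 RPM. Beside the hepatic Ly6Chi results, markers of B cells (8 of 8 called higher), T cells (7 of 8), endothelium (8 of 8) and erythroid cells (5 of 5 tested) were raised in Rnaset2-/- mice. Their sums went from 20.2 to 22.2 RPM in wild type to 133 to 362 RPM for B cells, from 11.5 to 31.2 to 189 to 404 RPM for T cells, from 85.7 to 124 to 460 to 2737 RPM for endothelium, and from 0.463 to 3.92 to 55.6 to 256 RPM for erythroid cells. Genes of classical monocytes were lower there (3 of 5 called, 0 higher, 2891 to 3185 RPM in wild type and 1057 to 1614 RPM in Rnaset2-/-). Of 7 KC markers tested there, 4 were higher and 1 was lower. In splenic Ly6Clow macrophages 15 neutrophil genes summed to 1154 to 2598 RPM in wild type and 3704 to 44018 RPM in Rnaset2-/- mice, with 3 of 15 called, and 6 of 8 genes of natural killer cells were lower (96.2 to 153 and 13.9 to 68.8 RPM). In splenic Ly6Chi macrophages 7 of 8 genes of natural killer cells were lower (604 to 634 RPM in wild type, 85.7 to 214 RPM in Rnaset2-/-), as were 7 of 7 tested of dendritic cells (167 to 180.4 and 21.3 to 27.8 RPM) and 8 of 8 of T cells (197 to 211 and 13.4 to 30.5 RPM). Their part in the members' changes was not tested.

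Whether the genotype effect itself differed was tested with interaction terms, which use the same libraries as the comparisons above. Between organs, the effects in Ly6Chi macrophages differed for 3 members, against 33.5% of all genes (liver minus spleen: Nlrc4 -1.46, SE 0.28, adjusted p = 0.00174; Casp4 -3.49, SE 0.76, adjusted p = 0.00412; Il1rn -2.35, SE 0.69, adjusted p = 0.0193, or 0.0655 in edgeR). In Ly6Clow macrophages 5 differed, against 26.8%. Nlrp1b (1.83, SE 0.32, adjusted p = 0.00132) and Pycard (1.16, SE 0.23, adjusted p = 0.00275) were more positive in liver, and Nlrc4 (-1.57, SE 0.41, adjusted p = 0.0139), Nlrp3 (-1.16, SE 0.36, adjusted p = 0.0285) and Aim2 (-0.91, SE 0.29, adjusted p = 0.0347) more negative. The calls of Nlrp3 and Aim2 were each lost when any of 7 libraries was left out. For Nlrp3 these were replicates 1 and 3 of wild-type spleen, 3 of mutant spleen, 2 and 3 of wild-type liver and 2 and 3 of mutant liver (adjusted p = 0.0511 to 0.0733). For Aim2 they were replicate 2 of wild-type spleen, 2 and 3 of mutant spleen, 1 and 3 of wild-type liver and 2 and 3 of mutant liver (adjusted p = 0.0541 to 0.0897), and its call was also lost without scaling (adjusted p = 0.0614).

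Between subsets, the genotype effects differed for 1 member in spleen, against 14.7% of all genes, and for 1 in liver, against 10.3%. In spleen it was Il1rn, whose rise was smaller in Ly6Clow macrophages (-1.16, adjusted p = 0.027). That call was lost without any of wild-type Ly6Chi replicates 1, 2 and 3, wild-type Ly6Clow replicate 2 or mutant Ly6Chi replicate 2 (adjusted p = 0.0546 to 0.0716). In liver it was Pycard, whose rise was larger in Ly6Clow macrophages (1.65, SE 0.32, adjusted p = 0.00848). Same-numbered libraries of the Rnaset2-/- liver deviated together, but those of wild-type liver did not (correlations of their deviations 0.34, -0.51 and -0.14). A block by replicate number ties the libraries of both genotypes. With that block Nlrp1b (1.14, adjusted p = 0.0446) and Gsdmd (-0.86, adjusted p = 0.043) were called in liver as well as Pycard. Without scaling the share of positive calls over all genes was 71.8% in place of 56.7% in spleen, 27.9% in place of 49.2% in liver, and 78.9% in place of 52.4% for the organ test in Ly6Chi macrophages.

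The next comparison set Ly6Clow against Ly6Chi macrophages of the same organ and genotype. Mefv was lower in Ly6Clow macrophages of both spleens and of wild-type liver, and Nlrp3 was lower in the same 3 settings. In wild-type spleen 4 members changed, against 33.6% of all genes: Nlrp3 (-0.71, SE 0.09) and Mefv (-1.80, SE 0.11) fell, and Nlrc4 (0.75, SE 0.16) and Gsdmd (0.65, SE 0.08) rose. In Rnaset2-/- spleen 3 changed, against 28.1%, and all fell (Nlrp3 -1.07, Mefv -1.74, Il1rn -1.15). In wild-type liver 3 changed, against 10.1%, and again all fell (Nlrp3 -0.96, Mefv -2.14, Il1rn -2.79). Mefv was 42.3 to 45.6 RPM in Ly6Chi and 10.7 to 10.96 RPM in Ly6Clow macrophages of wild-type spleen, and 55.9 to 67.1 and 12.1 to 15.4 RPM in wild-type liver. Il1rn went from 141 to 178 RPM in Ly6Chi to 18.5 to 27.0 RPM in Ly6Clow macrophages of wild-type liver, where no library of the latter came near the former. Neutrophil genes were lower in Ly6Clow macrophages too, with 15 of 15 called in wild-type and 5 of 15 in Rnaset2-/- spleen. In liver 10 of 12 tested were lower in wild type and 9 of 10 tested in Rnaset2-/- mice, and none was higher in any setting. In wild-type spleen 8 of 8 T cell genes and 8 of 8 natural killer cell genes were lower as well. What these genes contributed to the members' differences was not tested.

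Of these calls, Nlrp3 in wild-type liver was lost without wild-type Ly6Chi replicate 2 or 3 or Ly6Clow replicate 1 or 3 (adjusted p = 0.0649 to 0.0744), and without scaling (-0.85, adjusted p = 0.0527). Gsdmd in wild-type spleen fell under the fold limit without scaling (0.51). The share of called genes that were higher in Ly6Clow macrophages was 29.8% without scaling in place of 41.1% in wild-type spleen, and 65.4% in place of 52% in wild-type liver.

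In Rnaset2-/- liver 2 members changed, against 17.0% of all genes. Pycard was higher in Ly6Clow macrophages (130 to 185 RPM against 64.5 to 110 RPM; 1.11, SE 0.29, adjusted p = 0.0431) and Gsdmd was lower (70.4 to 104 RPM against 180 to 234 RPM; -1.12, SE 0.24, adjusted p = 0.0226). Same-numbered libraries of these 2 groups deviated together. With the replicate number as a block, 6 members were called: Pycard (adjusted p = 0.0247), Gsdmd (0.00438), Nlrp1b (0.81, adjusted p = 0.0277), and 3 that were lower, namely Mefv (-2.71, adjusted p = 0.00158), Il1rn (-1.66, adjusted p = 0.00748) and Nlrp3 (-1.27, adjusted p = 0.00936). Without the block, Pycard was lost when any of mutant Ly6Chi replicates 2 and 3 and Ly6Clow replicates 1, 2 and 3 was left out (adjusted p = 0.0571 to 0.143), and Gsdmd without replicate 2 or 3 of either subset (adjusted p = 0.0521 to 0.0929). Without scaling 38.8% of called genes were higher in Ly6Clow macrophages, in place of 51.4%.

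**Figure D4:**
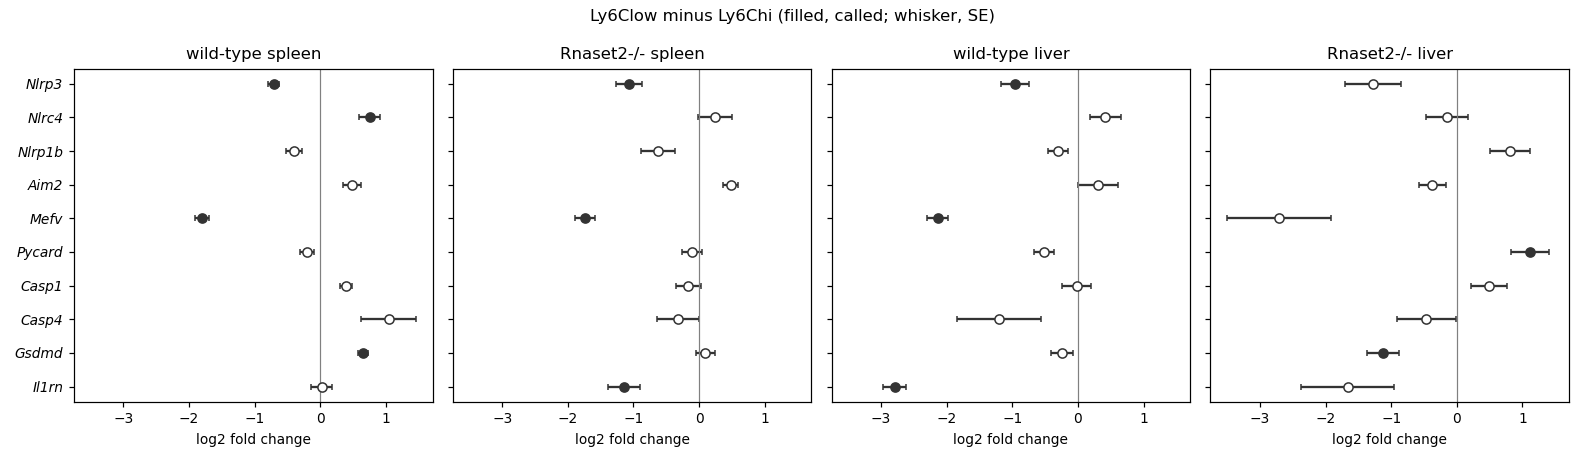
Log2 difference between Ly6Clow and Ly6Chi macrophages (x axis) for the 10 members (y axis) in the 4 settings of genotype and organ. Filled circles are called changes in the fit without replicate blocks, open circles are not, and whiskers are SE. Mefv is far left of 0 in every panel (-1.74 to -2.71), and Il1rn lies at 0.02 in wild-type spleen but at -2.79 in wild-type liver.

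Ly6Clow macrophages were also compared between liver and spleen. In wild type 3 members were higher in liver, against 34.1% of all genes called: Nlrc4 (18.0 to 27.2 RPM against 7.62 to 10.1 RPM; 1.23, SE 0.19, adjusted p = 0.00077), Nlrp1b (34.1 to 41.2 RPM against 24.0 to 26.4 RPM; 0.61, adjusted p = 0.00592) and Il1rn (18.5 to 27.0 RPM against 9.97 to 15.7 RPM; 0.86, adjusted p = 0.0105). With the replicate number as a block 4 were called, Casp4 being higher as well (1.01, adjusted p = 0.00323; 0.18 without the block). Nlrp1b lay near the fold limit and was lost without spleen replicate 1 or liver replicate 2 (0.56 and 0.57) and without scaling (0.57). Il1rn was lost without replicate 3 of either organ (adjusted p = 0.0521 and 0.0528). In this comparison 19 of 30 immediate-early genes were higher in liver and 1 lower, and 12 of 21 NF-κB targets were higher and 0 lower. Neutrophil genes (14 of 14 tested) and natural killer cell genes (8 of 8) were lower in liver. Their part in the members' differences was not tested. Y-linked genes were read in liver replicates 2 and 3 (52.0 RPM) but in none of these spleen libraries, so organ and sex cannot be fully told apart.

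In Rnaset2-/- mice 6 members differed between the organs, against 36.1% of all genes. The liver libraries had the male pattern of Xist and Y-linked genes, and of the spleen libraries only replicate 2 had it. Organ and sex therefore cannot be told apart here. Nlrp1b was 52.5 to 72.5 RPM in liver and 8.23 to 18.8 RPM in spleen (2.47, SE 0.27, adjusted p = 0.000446), and Pycard (1.13, SE 0.18, adjusted p = 0.00228) and Casp1 (0.76, SE 0.23, adjusted p = 0.0298) were also higher. Aim2 (-0.86, SE 0.16, adjusted p = 0.00442), Gsdmd (-0.81, SE 0.19, adjusted p = 0.0114) and Nlrp3 (-0.87, SE 0.30, adjusted p = 0.0469) were lower in liver. Nlrp3 was lost without any of the 4 spleen libraries or liver replicate 2 or 3 (adjusted p = 0.066 to 0.15), and Casp1 without spleen replicate 1, 2 or 3 or liver replicate 1 or 2 (adjusted p = 0.0503 to 0.0879). Of 28 immediate-early genes tested here, 19 were lower in liver and 1 higher, and of 20 NF-κB targets tested 8 were lower and 1 higher. Their part in the members' differences was not tested.

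KCs were compared with the hepatic Ly6Clow macrophages. Against wild-type Ly6Clow macrophages 8 of the 10 members were lower in KCs, all but Nlrp1b and Il1rn, at a background of 50.0% of all genes called. The largest differences were those of Casp4 (1.997 to 4.10 RPM in KCs, 8.77 to 38.1 RPM in Ly6Clow macrophages; -2.67, SE 0.44, adjusted p = 0.000514), Gsdmd (71.3 to 87.6 RPM against 133 to 180 RPM; -1.54, SE 0.15, adjusted p = 1.83e-05) and Aim2 (40.4 to 60.2 RPM against 70.7 to 138 RPM; -1.54, SE 0.22, adjusted p = 0.000208). Nlrp3 (-1.37), Mefv (-1.24), Pycard (-1.17), Nlrc4 (-0.90) and Casp1 (-0.80) were also lower, the last of them not without wild-type Ly6Clow replicate 1 (adjusted p = 0.0556). The scaling mattered here more than elsewhere, since it moved the median of all genes by 0.56. Without it 79.8% of called genes were higher in KCs, in place of 52%, and 5 members were called, Nlrc4, Mefv and Casp1 being lost, while the uncalled differences of Nlrp1b and Il1rn changed sign. KC libraries also held 1241 to 4033 RPM of hepatocyte genes, against 47.8 to 209 RPM in wild-type Ly6Clow libraries, with 3 of 6 called. Markers of B cells (8 of 8 higher, 638 to 1195 RPM in KCs against 27.7 to 31.4 RPM), natural killer cells (7 of 7 tested, 89.8 to 315 against 3.67 to 6.36 RPM), T cells (7 of 8, 212 to 326 against 15.1 to 33.8 RPM) and endothelium (8 of 8, 3512 to 7396 against 275 to 486 RPM) were also higher in KCs. In the same comparison 28 of 30 immediate-early genes were lower in KCs and 0 higher (2944 to 4499 RPM against 30559 to 44105 RPM). Of 21 NF-κB targets 17 were lower and 0 higher (1880 to 2204 RPM against 8782 to 11640 RPM). The part of these markers and lists in the members' differences was not tested.

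Against KCs, Rnaset2-/- hepatic Ly6Clow macrophages had 5 members changed, against 45.6% of all genes. These macrophages expressed KC markers in part, with 5 of 8 called lower than in KCs and 0 higher. The paper reports the markers Tim4 and Clec4f as absent from these cells. Their libraries had the male pattern of Xist and Y-linked genes, whereas the KC libraries held no read of Y-linked genes. Cell type, genotype and sex therefore cannot be told apart in this comparison. Pycard was higher (130 to 185 RPM against 27.5 to 35.2 RPM; 2.81, SE 0.19, adjusted p = 1.82e-05), as were Casp1 (1.11, SE 0.25), Nlrp1b (0.90, SE 0.23) and Gsdmd (0.65, SE 0.18). Nlrp3 was lower (-1.02, SE 0.37, adjusted p = 0.047), though not without KC replicate 1, 2 or 4 or mutant replicate 2 or 3 (adjusted p = 0.0983 to 0.168). Gsdmd fell under the fold limit without mutant replicate 1 (0.53). Without scaling only 15.9% of called genes were higher, in place of 42.5%, and 4 members were called: Pycard was called higher, Nlrp3, Nlrc4 and Aim2 lower, and Casp1, Nlrp1b and Gsdmd were lost, while the uncalled differences of Mefv and Il1rn changed sign.

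**Figure D5:**
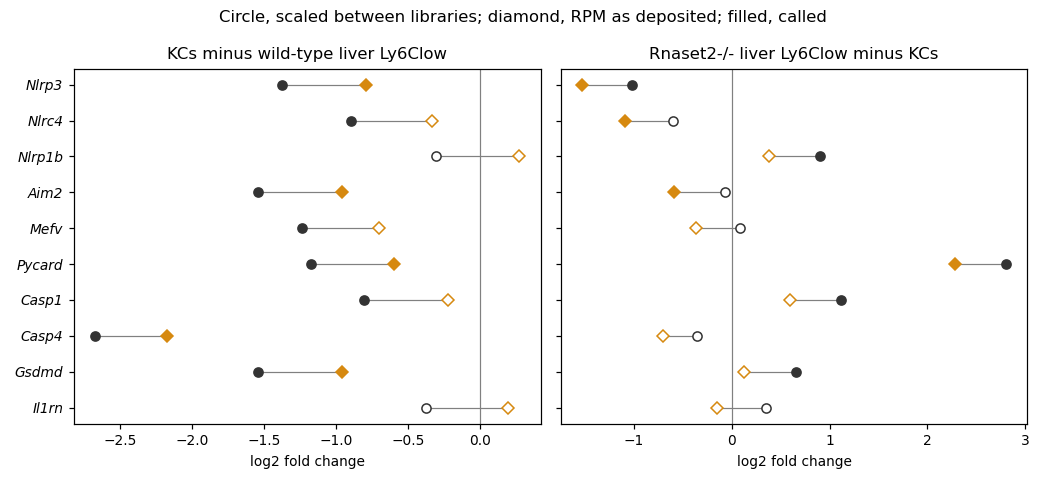
Log2 difference (x axis) of the 10 members (y axis) between KCs and wild-type hepatic Ly6Clow macrophages, and between Rnaset2-/- hepatic Ly6Clow macrophages and KCs. Circles are scaled and diamonds are deposited values, filled where called, and grey lines join the circle and the diamond of each member. Pycard moves from -1.17 to 2.81 between the panels, and diamonds lie to the right of circles in the first panel and to the left in the second.

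Beyond the members, 65 other genes of the pathway were followed by role: other sensors, partners of activation, executioners, cytokines and their receptors, and inhibitors. Of those tested, 7 rose and 12 fell (61 tested) in splenic Ly6Chi macrophages and 2 rose and 7 fell (60 tested) in splenic Ly6Clow macrophages of Rnaset2-/- mice, where 22.2% and 8.35% of all genes were called. In liver 8 rose and 10 fell (62 tested) in Ly6Chi, and 15 rose and 10 fell (59 tested) in Ly6Clow macrophages, where 30.6% and 42.7% of all genes were called.

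In spleen Il1b, which encodes the precursor of IL-1β, was among the 2 genes with the largest rises in both subsets. It was 206 to 228 RPM in wild-type and 425 to 614 RPM in Rnaset2-/- Ly6Chi macrophages (1.30, SE 0.14, adjusted p = 8.92e-05), and 311 to 348 RPM and 1155 to 2008 RPM in Ly6Clow macrophages (2.32, SE 0.20, adjusted p = 0.000579). Neutrophil genes, of which 8 of 15 were called higher in Ly6Chi and 3 of 15 in Ly6Clow macrophages, moved in the same direction, and their part was not tested. Serpinb1a, an inhibitor of serine proteases (1.53, SE 0.24, adjusted p = 0.000872), rose in Ly6Chi and Syk, a tyrosine kinase below immune receptors (1.30, SE 0.15, adjusted p = 0.00251), in Ly6Clow macrophages. The largest falls were those of Nlrc3 (-2.63, SE 0.18, adjusted p = 5.03e-06) and Il18r1, a chain of the IL-18 receptor (-1.95, SE 0.21, adjusted p = 7.9e-05), in Ly6Chi macrophages, where natural killer and T cell genes were lower as well. In Ly6Clow macrophages they were Naip6 (-1.55, SE 0.24, adjusted p = 0.00833), a near copy of other Naip genes whose reads may be shared, and Txnip, which encodes a binding partner of thioredoxin (-1.43, SE 0.24, adjusted p = 0.0126).

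In liver Il18r1 (3.36, SE 0.27, adjusted p = 0.000279) and Nlrc3 (2.92, SE 0.34, adjusted p = 0.00117) led the rises in Ly6Chi macrophages, where 7 of 8 genes of natural killer cells were higher as well (14.6 to 22.9 RPM in wild type, 171 to 493 RPM in Rnaset2-/-). Il18bp, the secreted binder of IL-18, rose in Ly6Clow macrophages from 16.6 to 20.7 RPM in wild type to 167 to 708 RPM in Rnaset2-/- mice (3.96, SE 0.45, adjusted p = 0.000321), and P2rx4, an ATP-gated channel, from 5.93 to 10.8 RPM to 52.0 to 79.1 RPM (2.79, SE 0.25, adjusted p = 9.8e-05). Il1r2, the decoy receptor of IL-1, led the falls in both subsets. It went from 7.64 to 72.4 RPM to 1.39 to 3.76 RPM in Ly6Chi (-3.58, SE 0.74, adjusted p = 0.0105) and from 63.1 to 117 RPM to 0.70 to 0.85 RPM in Ly6Clow macrophages (-5.72, SE 0.28, adjusted p = 9.88e-06). Tnfaip3, which encodes the NF-κB inhibitor A20, fell as well (-2.64 in Ly6Chi and -2.59 in Ly6Clow).

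Finally, the genes with the pattern most like each member were named from Pearson's r over the 29 libraries among 7909 genes with a mean of at least 10 RPM (7910 for Casp4). Nlrp3 was most like Tagap (r = 0.91), Card19 and Runx3. Nlrc4 was most like 3110043O21Rik (0.87), Fam174a and Creb3, and Aim2 like Ccnl2 (0.88), Zufsp and Naip5. Nlrp1b was most like Nlrp1c-ps (0.88), its neighbouring pseudogene, with which it may share reads, followed by Mob3c and Lpl. Mefv followed Slfn1 (0.93), Hpse and Vim; Pycard followed BC064078 (0.95), Srpr and Il4ra; Casp1 followed Adam17 (0.86), Ahsa1 and Ddhd1. Casp4 followed Slc35b1 (0.95), Pfdn5 and Reps1, Gsdmd followed Clec4e (0.96), Ly6i and Arl5c, and Il1rn followed Anxa4 (0.88), Txndc17 and Cxcl10. These values describe the libraries, which share organ, subset and genotype.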

How the data were processed

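Gene expression was measured by amplicon sequencing (Ion AmpliSeq Transcriptome, mouse) in 29 libraries of sorted macrophages. The authors aligned the reads to mm10, per the labels, counted them per amplicon with the AmpliSeqRNA plug-in and deposited reads per 1000000 reads (RPM) for 23930 genes. All values came out as whole reads within 0.1 reads (100%), at 11175843 to 21167602 reads per library.

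RPM values were divided by relative log expression factors, 1 was added, and log2 values were fitted with limma 3.58.1 (R 4.3.3, mean-variance trend) over the compared groups alone, after genes that did not reach 1 RPM in 3 or more of those libraries had been left out. P-values were adjusted by Benjamini-Hochberg over all genes tested. The fits were tested on simulated data. Alternatives were an added value of 0.1, no filter, no scaling, 1 fit of all libraries, a replicate block, each library left out, no fold limit, and edgeR 4.0.16 and DESeq2 1.42.0 on the recovered reads, with 1 more alternative chosen after seeing the data. Intervals and floors on reads cover counting error only.

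Groups followed the labels. The members and all lists (pathway genes by role, immediate-early genes, NF-κB targets, and markers of neutrophils, B, T, natural killer, erythroid, dendritic, endothelial, hepatocyte, Kupffer, monocyte and macrophage identity) were chosen with earlier results of these data known. Named besides the members were the 2 pathway genes with the largest called rise and the 2 with the largest called fall in each genotype comparison, and the 3 genes most correlated with each member. The main fits used no pairing. Same-numbered libraries were said to deviate together where every correlation of their deviations from the group means exceeded 0.1. That held for the subsets of Rnaset2-/- liver (0.53, 0.27 and 0.41), for wild-type Ly6Clow macrophages of the 2 organs (0.14, 0.44 and 0.12), and for Rnaset2-/- hepatic Ly6Clow macrophages and KCs (0.13, 0.13 and 0.38), a hint from the data since the labels give numbers only. Libraries of the last pair differ in genotype and cannot come from the same mouse. Dendritic markers summed to 13.9 to 641 RPM, and markers of patrolling monocytes and of macrophages to 1433 to 22083 RPM and 4446 to 35786 RPM. Promoters were those of RefSeq (GRCm38.p6).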

Additional observations from a re-analysis of the deposited data

Results flagged for a closer look

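Of 20 groups of 4 libraries examined over the members, 2 held a library that stood apart from the rest, where chance alone is known to give about 1 in 20. Nlrp1b in replicate 1 of Rnaset2-/- splenic Ly6Clow macrophages was 18.8 RPM, with 8.23 to 8.60 RPM in the others, so that its distance took 0.965 of the range. Gsdmd in replicate 1 of the KCs was 87.6 RPM, with 71.3 to 73.8 RPM in the others (0.849 of the range).

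Other results drew attention because a genotype effect differed between settings by an interaction test in limma. Between hepatic and splenic Ly6Chi macrophages the effect was more negative in liver for Casp4 (-3.49, adjusted p = 0.00412), Il1rn (-2.35, adjusted p = 0.0193) and Nlrc4 (-1.46, adjusted p = 0.00174). Between hepatic and splenic Ly6Clow macrophages it was more positive in liver for Nlrp1b (1.83, adjusted p = 0.00132) and Pycard (1.16, adjusted p = 0.00275), and more negative for Nlrc4 (-1.57, adjusted p = 0.0139), Nlrp3 (-1.16, adjusted p = 0.0285) and Aim2 (-0.91, adjusted p = 0.0347). Between Ly6Clow and Ly6Chi macrophages it was more positive in Ly6Clow for Pycard in liver (1.65, adjusted p = 0.00848) and less positive for Il1rn in spleen (-1.16, adjusted p = 0.027). The tests between organs and within liver rest on hepatic libraries, where an effect of genotype and an effect of sex cannot be told apart.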

How the results depend on the processing

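The values of the members were recomputed 2550 times. Of these, 2345 kept their side of the threshold, 133 lost the call and 72 gained one. Of the called values 0 reversed, but 68 of the 2345 were uncalled in both fits and changed sign. Of 255 recomputed counts of changed members, 204 stayed within 1.5 times. An added value of 0.1 changed no count by more than that. With 1 library left out at a time, the counts ranged from 1 to 3 for genotype in splenic Ly6Clow macrophages, from 2 to 7 in hepatic Ly6Chi (7 without replicate 1 of the Rnaset2-/- group), from 0 to 3 for subset in Rnaset2-/- liver, from 0 to 3 and from 1 to 3 for genotype by subset in spleen and liver, and from 3 to 7 for genotype by organ in Ly6Chi (7 without replicate 1 of the Rnaset2-/- hepatic group) and in Ly6Clow macrophages. In the limma fits that called 0 members, 1 to 5 had an unadjusted p under 0.05. Without replicate 1 of both Rnaset2-/- hepatic groups, an alternative chosen after seeing the data, 6 members in place of 2 were called for subset in Rnaset2-/- liver and 5 in place of 1 for genotype by subset in liver.

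Without the filter on low values the counts were 1 in place of 3 for genotype in splenic Ly6Clow, 0 in place of 4 in hepatic Ly6Chi (4 at an unadjusted p under 0.05, and 4 by DESeq2 and by edgeR), 4 in place of 7 in hepatic Ly6Clow, 0 in place of 2 for subset in Rnaset2-/- liver, 3 in place of 6 for organ in Rnaset2-/- Ly6Clow macrophages, 0 in place of 1 for genotype by subset in spleen and 3 in place of 5 for genotype by organ in Ly6Clow macrophages. Without scaling they were 2 in place of 4 for genotype in hepatic Ly6Chi, 5 in place of 8 for KCs against wild-type Ly6Clow macrophages and 2 in place of 1 for genotype by subset in liver. In a single fit of all 29 libraries they were 2 in place of 5 for genotype in splenic Ly6Chi, 6 in place of 2 for subset in Rnaset2-/- liver, and 0 and 3 in place of 1 for genotype by subset in spleen and liver. DESeq2 gave 5 and edgeR 1 in place of 2 for subset in Rnaset2-/- liver, and DESeq2 gave 2 and 3 in place of 1 for genotype by subset in spleen and liver. With no fold limit 7 in place of 4 were called for subset in wild-type spleen, and 2 in place of 1 for genotype by subset in spleen. The cause of these shifts was not tested.

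With the replicate number as a block, 1 member in place of 3 was called for genotype in splenic Ly6Clow macrophages (Nlrp1b 0.0516 and Aim2 0.0836 by adjusted p), 6 in place of 2 for subset in Rnaset2-/- liver, and 3 in place of 1 for genotype by subset in either organ. Among the pairs whose numbers deviated together, the block changed no call besides those given for subset in Rnaset2-/- liver and for organ in wild-type Ly6Clow macrophages. For genotype by subset in liver only the Rnaset2-/- subsets deviated together, while the block also ties the wild-type libraries.

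Over all genes, the counts that moved by more than 1.5 times were, without the filter, 1455 in place of 2311 for genotype in splenic Ly6Chi, 127 in place of 860 in splenic Ly6Clow, 1474 in place of 3351 in hepatic Ly6Chi, 1325 in place of 2897 and 495 in place of 1178 for subset in Rnaset2-/- spleen and wild-type liver, 353 in place of 1853 in Rnaset2-/- liver, 2409 in place of 3614 and 2462 in place of 3812 for organ in wild-type and Rnaset2-/- mice, and 871 in place of 1596 and 728 in place of 1305 for genotype by subset in spleen and liver. A single fit gave 1145, 5638 and 3796 for genotype in splenic Ly6Chi and hepatic Ly6Chi and for subset in Rnaset2-/- liver, and 768 and 2314 for the subset interactions in spleen and liver. The block gave 1319 for subset in Rnaset2-/- spleen and 3135 in Rnaset2-/- liver, DESeq2 gave 1600 for genotype in splenic Ly6Clow macrophages, and no fold limit gave 3962 for genotype in splenic Ly6Chi and 5411 for subset in wild-type spleen. With 1 library left out, the lowest counts beyond that limit were, for genotype, 145 in splenic Ly6Clow (without wild-type replicate 3) and 1695 in hepatic Ly6Chi (without mutant replicate 2). For subset they were 1694 in Rnaset2-/- spleen (without Ly6Chi replicate 3), 546 in wild-type liver (without Ly6Clow replicate 3) and 445 in Rnaset2-/- liver (without Ly6Chi replicate 2). For genotype by subset they were 871 in spleen (without wild-type Ly6Chi replicate 1) and 687 in liver (without wild-type Ly6Clow replicate 3), where the highest was 2414 (without mutant Ly6Chi replicate 1). Depth limited Casp4 most, at 9 reads in its lowest library.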

Other observations

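The cytokines that caspase-1 matures were part of the pathway list, and Il18 was singled out after its values were seen. Il18 in hepatic Ly6Clow macrophages was 32.8 to 35.8 RPM in wild type and 87.5 to 154 RPM in Rnaset2-/- mice (log2 difference 1.64, SE 0.23, adjusted p = 0.000893 in limma), beside the rise of Il18bp in the same libraries. In splenic Ly6Clow macrophages Il18 was 32.9 to 36.0 RPM in wild type and 13.6 to 27.6 RPM in Rnaset2-/- mice (-0.88, SE 0.21, adjusted p = 0.0362). The genotype effect on Il18 differed between the organs (2.53, SE 0.32, adjusted p = 0.000161).

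Il1b, which rose in both splenic subsets, was 1234 to 1940 RPM in wild-type and 644 to 693 RPM in Rnaset2-/- hepatic Ly6Chi macrophages (-1.48, SE 0.22, adjusted p = 0.00291), and its level in hepatic Ly6Clow macrophages was 986 to 1566 RPM in wild type and 849 to 1783 RPM in Rnaset2-/- mice (0.14, adjusted p = 0.765). The genotype effect on Il1b differed between the organs in Ly6Chi (-2.75, SE 0.26, adjusted p = 1.29e-05) and in Ly6Clow macrophages (-2.18, SE 0.41, adjusted p = 0.00204).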
